A study of Homo sapiens with 24 samples.

Results

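The genes described here encode CTCF and the cohesin machinery: CTCF itself, its testis paralog CTCFL, the cohesin subunits RAD21, SMC3, SMC1A, STAG1 and STAG2, the loading factors NIPBL and MAU2, and the release factor WAPL. Each of the 10 genes was taken with every called ATAC-seq region that lay within 5 kb of one of its transcription start sites (TSS) or overlapped its gene body in the GENCODE annotation of the human genome build hg19. This gave 9 distinct regions, on 5 of the 10 genes, out of 26369 distinct regions in the whole series and 20162 annotated protein-coding genes. The regions came from VAL and OCI-LY3, established cell lines of diffuse large B-cell lymphoma (DLBCL), which received AZD4573, a selective inhibitor of CDK9, at 30 nM for 0, 3 or 8 h. The 24 libraries comprised 4 for each line and time, 2 made by standard ATAC-seq from 50000 cells and 2 by Fast-ATAC, a variant optimized for blood cells, labelled as 5000 cells although the protocol gives 50000. The treatments were done in duplicate, so the 4 libraries of a condition need not be 4 separate cultures. Each of the 4 comparisons set 3 h or 8 h against 0 h of the same line, so both comparisons of a line share its control libraries. They are called VAL 3 h, VAL 8 h, OCI-LY3 3 h and OCI-LY3 8 h here. The deposited lists name the control DMSO where the labels give 0 h.

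ATAC-seq uses the transposase Tn5 to tag DNA that is open in chromatin, and a region was listed as increased or decreased when its tag count changed past the thresholds of the study. The lists hold coordinates only. They carry no count, fold change or p-value, so neither the size of a change nor the spread between libraries can be given, the depth of the libraries is unknown, and no test was possible. Peaks of all samples were merged into 1 set before counting, and of the 26369 distinct regions 0 pairs overlapped without being identical, in either line. A region in at least 1 list was thus in the set, and where another list lacked it, it had not passed the thresholds there, which does not show that it was unchanged. For a gene with no region in any list, an absent peak and a peak below the thresholds cannot be told apart. The cell type of the lines could not be checked against marker levels for the same reason.

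Cohesin is a ring built of the ATPase subunits SMC1A and SMC3, closed by the kleisin RAD21 and bound by either STAG1 or STAG2. NIPBL and MAU2 load the ring on DNA and support loop extrusion, WAPL releases it, and CTCF bound to its sequence motif halts it, which places the borders of chromatin loops. CDK9 is the kinase that releases paused RNA polymerase II into elongation. The comparisons ask whether accessibility changed at the genes of the loop machinery when elongation was blocked.

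The called regions of the CTCF and cohesin genes fell into 2 kinds. The 3 regions that covered a TSS, at MAU2, SMC1A and CTCF, were increased in every list that held them. The 6 regions away from a TSS, 1 in RAD21 and 5 in the STAG2 gene model, were decreased in every list that held them. CTCFL, SMC3, STAG1, NIPBL and WAPL had no region in any list. Counting regions within 5 kb of a TSS and leaving out gene bodies, 12435 protein-coding genes (61.7%) had none in any list. By that count RAD21 and STAG2 were among them too. In all, the 9 regions made up 16 list entries, 7 increased and 9 decreased. Over the whole lists, the called regions within 1 kb of a protein-coding TSS were also mostly increased, at 96.6% in VAL 3 h, 87.1% in VAL 8 h, 87.7% in OCI-LY3 3 h and 86.0% in OCI-LY3 8 h. Farther away the increased share was 50.8%, 43.4%, 36.7% and 46.7% in the same order.

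**Figure D1:**
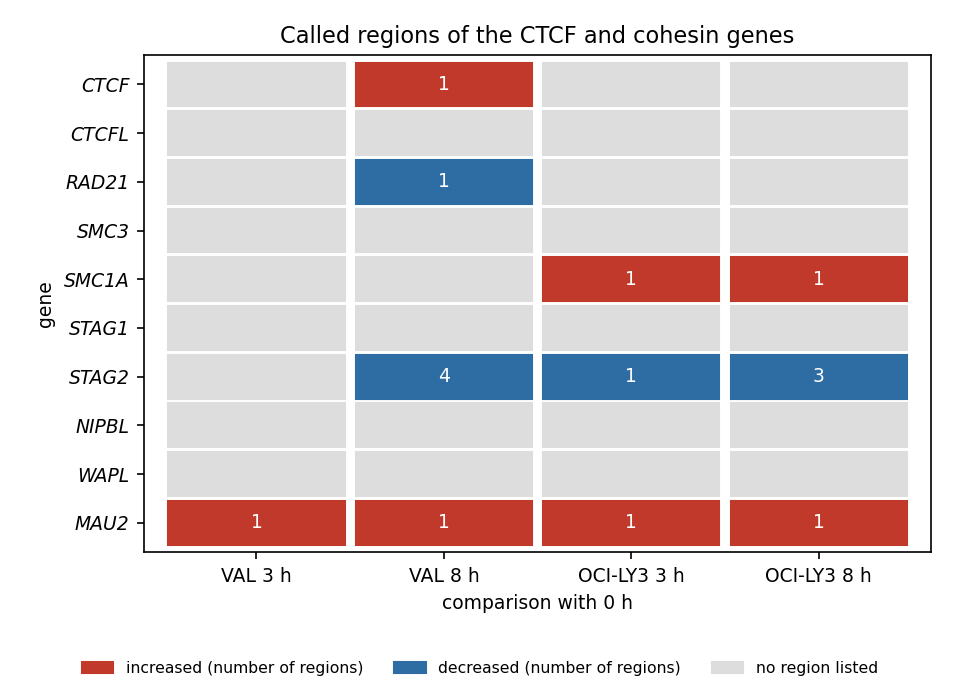
Called regions of each gene (rows) in each comparison with 0 h (columns). Red cells hold increased and blue cells decreased regions, with their number written in the cell, and grey cells had no region listed. MAU2 is red in all 4 comparisons, and STAG2 holds 4, 1 and 3 decreased regions in VAL 8 h, OCI-LY3 3 h and OCI-LY3 8 h.

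Stretches of DNA that the calls covered are shown for the 3 start sites, each of which lies near a divergent TSS. The MAU2 and CTCF stretches lie before the gene, and the SMC1A stretch lies downstream of its canonical TSS, outside the divergent gap. All are read from the plus strand of GRCh37, and capitals mark a GC box, GGGCGG on either strand, the element bound by Sp1 family factors. The MAU2 stretch is the last 300 bp before its TSS (chr19:19431338-19431637, GC 57.0%), the CTCF stretch is the whole gap of 157 bp between the TSS of the divergent non-coding transcript CTCF-DT and the first TSS of CTCF (chr16:67596213-67596369, GC 74.5%), and the SMC1A stretch is the first 300 bp of intron 1 counted along the gene (chrX:53449141-53449440, GC 66.3%).
MAU2: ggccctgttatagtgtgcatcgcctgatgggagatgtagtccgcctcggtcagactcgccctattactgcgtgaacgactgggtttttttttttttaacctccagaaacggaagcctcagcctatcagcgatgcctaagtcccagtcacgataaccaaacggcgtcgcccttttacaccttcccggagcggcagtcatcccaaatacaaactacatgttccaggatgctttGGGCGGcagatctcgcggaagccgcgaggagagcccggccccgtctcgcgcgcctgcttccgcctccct
CTCF: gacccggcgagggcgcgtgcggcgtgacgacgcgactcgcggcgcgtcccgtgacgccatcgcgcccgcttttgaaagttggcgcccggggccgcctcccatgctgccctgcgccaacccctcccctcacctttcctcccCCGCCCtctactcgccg
SMC1A: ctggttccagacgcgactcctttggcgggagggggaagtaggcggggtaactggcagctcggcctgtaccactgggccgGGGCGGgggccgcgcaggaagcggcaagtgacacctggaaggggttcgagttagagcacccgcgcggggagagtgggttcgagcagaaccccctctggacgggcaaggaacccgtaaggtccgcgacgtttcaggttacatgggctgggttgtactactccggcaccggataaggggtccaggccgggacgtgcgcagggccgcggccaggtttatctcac

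MAU2, the partner of NIPBL in the cohesin loader, was called in every comparison. Its region at chr19:19430728-19432504 (1777 bp, GC 62.4%) was increased each time. It reached from 910 bp upstream to 866 bp downstream of the only MAU2 TSS and covered exon 1 and part of intron 1 of 19 exons. The region also covered the TSS of SUGP1, a gene of the splicing factor family that runs the other way, with 319 bp between both TSSs, so the call cannot be assigned to 1 of the genes. Over the whole series, 615 regions were increased in all 4 comparisons and 163 were decreased in all 4. Increased regions were mapped to within 5 kb of a TSS in every comparison, with none decreased, for 732 protein-coding genes (3.63%), MAU2 included.

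SMC1A, an ATPase subunit of the ring, was called in one line. Its region at chrX:53448350-53450198 (1849 bp, GC 57.1%) was increased after both times in OCI-LY3 and stood in no VAL list. It reached from 595 bp upstream to 1253 bp downstream of the canonical TSS, over exon 1 and part of intron 1 of 25 exons. RIBC1, a gene read in the opposite direction, starts 127 bp from the outermost SMC1A TSS and lay under the same region. The difference between the lines was not tested, since no value per library was at hand. Counting regions within 5 kb of a TSS alone and leaving out the gene body, 169 protein-coding genes (0.838%) were increased in OCI-LY3 at both times and not listed in VAL. Among them were the condensin ATPase gene SMC4 and the SMC5/6 ligase gene NSMCE2, which, unlike SMC1A, each had a decreased region over the gene body in VAL 8 h.

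CTCF was called in 1 comparison. Its region at chr16:67595611-67597731 was increased in VAL 8 h and was in no other list. With 2121 bp it was wider than 93.1% of the regions increased in VAL 8 h, and its GC content of 70.1% was above that of 92.5% of them. The region covered 818 bp upstream and 1302 bp downstream of the canonical TSS, and held the TSS of CTCF-DT. By the same count without gene bodies, a region increased in VAL 8 h and in no other list was the pattern of 2632 protein-coding genes (13.1%). Of the related genes examined, SMC1B, STAG3, YY1, NCAPD2, NCAPH and NSMCE3 had it too, YY1 with a further increased region over its gene body in OCI-LY3 8 h.

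**Figure D2:**
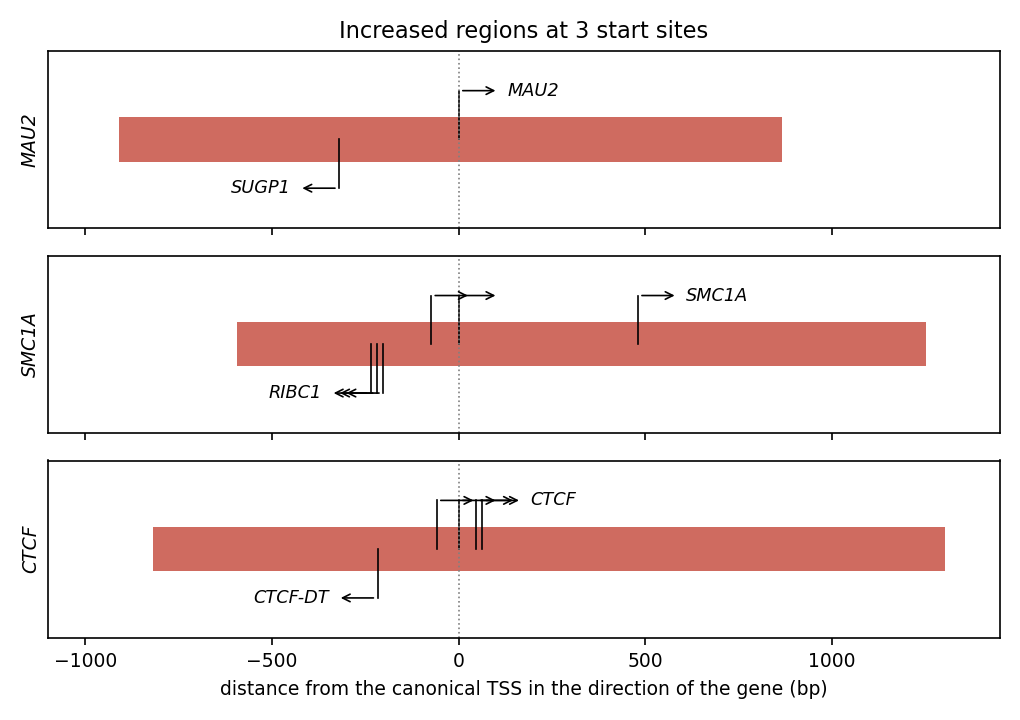
The increased regions at MAU2, SMC1A and CTCF (red bars) against distance in bp from the canonical TSS, in the direction of the gene. Arrows mark basic TSSs, drawn upward for the named gene and downward for its divergent neighbour, and each bar covers TSSs of both directions.

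All 3 increased regions thus held TSSs of both directions. Among the 4774 increased regions of the series that covered a protein-coding TSS, 35.1% covered the TSS of another gene as well, and 16.1% covered TSSs of more than 1 protein-coding gene. The MAU2 region was wider than 75.1% to 82.7% of the regions of its 4 lists. The SMC1A region was wider than 79.7% and 82.4% of the OCI-LY3 lists at 3 h and 8 h.

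At the level of the gene list, the number of CTCF and cohesin genes with an increased region by the 5 kb or gene body rule was 1 of 10 in VAL 3 h and 2 of 10 in each of VAL 8 h, OCI-LY3 3 h and OCI-LY3 8 h. The background over all protein-coding genes by the same rule was 15.2% for VAL 3 h, 34.6% for VAL 8 h, 9.34% for OCI-LY3 3 h and 17.1% for OCI-LY3 8 h. Decreased regions were found for 0, 2, 1 and 1 of the 10 genes, in the same order, beside a background of 4.24%, 13.1%, 4.66% and 7.41%. Each gene is worth 10.0 percentage points, and no count differed from the background by as many as 2 genes.

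For regions within 1 kb of a TSS, the increased counts were again 1, 2, 2 and 2 of 10, beside 10.3%, 25.1%, 5.92% and 9.30% of all protein-coding genes. No CTCF or cohesin gene had a decreased region within 1 kb of a TSS in any comparison. The background for that was 0.322% in VAL 3 h, 3.38% in VAL 8 h, 0.694% in OCI-LY3 3 h and 1.28% in OCI-LY3 8 h.

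RAD21 (chr8:117858173-117887015), the kleisin that closes the ring, had its only region by this rule inside the gene. The region chr8:117863322-117864364 (1043 bp, GC 40.5%) was decreased in VAL 8 h, 22084 bp from the nearest RAD21 TSS, over exon 11 and the flanking introns 10 and 11 of 14 exons. It was narrower than most of its list, wider than 23.2% of the regions decreased in VAL 8 h, and its GC content was above that of 47.8% of them. A second region lay just outside the rule, 886 bp past the 3′ end of RAD21, at chr8:117855413-117857287 (1875 bp, GC 44.2%). That region was decreased in all 4 comparisons, and the RAD21 TSS, 29161 bp away, was its nearest protein-coding TSS. Another region, 12327 bp upstream of the RAD21 TSS (chr8:117899342-117900668), was decreased in VAL 8 h. Within 1 Mb of the RAD21 TSS no region was increased in any comparison, while 2 and 19 regions were decreased in VAL and 2 and 9 in OCI-LY3, at 3 h and 8 h each. Over the whole of chromosome 8 the increased share of the called regions was 52.1%, 29.5%, 37.5% and 35.8% in the same order.

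STAG2, the STAG subunit that is often mutated in cancer, had 5 decreased regions, and all 5 lay past the end of its canonical transcript. The canonical transcript runs from 123095556 to 123236506 on chromosome X (140951 bp), whereas the GENCODE gene runs to 123556514. Of 29 annotated STAG2 transcripts 1 reaches past the canonical end by more than 1000 bp, a model of 4 exons without a defined coding sequence that carries no basic tag, and none of its exons lay in the 5 regions. The calls are therefore calls in the 3′ flank of STAG2 as the coding transcripts define it, and they are listed under STAG2 because of this transcript model. With the canonical transcript as gene body, an alternative chosen after seeing the data, STAG2 had 0 regions.

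The STAG2 region nearest to the canonical end, chrX:123237898-123239237 (1340 bp, GC 40.8%), was 1392 bp past it and was decreased in both OCI-LY3 comparisons and in VAL 8 h. The next, chrX:123350950-123352735 (1786 bp, GC 46.5%), was decreased in OCI-LY3 8 h. It lay 114444 bp past the canonical end, and its nearest protein-coding TSS was that of TEX13D, at 113775 bp. The remaining 3 regions lay in introns of TENM1, a gene for a transmembrane protein of neurons that overlaps the end of the long STAG2 model on the other strand. They were chrX:123521970-123523269 in intron 27 and chrX:123528913-123530409 in intron 26, both decreased in VAL 8 h, and chrX:123548183-123549551 in intron 24, decreased in VAL 8 h and OCI-LY3 8 h. For these 3 regions the nearest protein-coding TSS outside STAG2 was that of SH2D1A, which encodes the signalling adaptor SAP of lymphocytes, at 41512 bp, 48455 bp and 67725 bp. The nearest STAG2 TSS was between 142309 bp and 452594 bp away for the 5 regions.

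**Figure D3:**
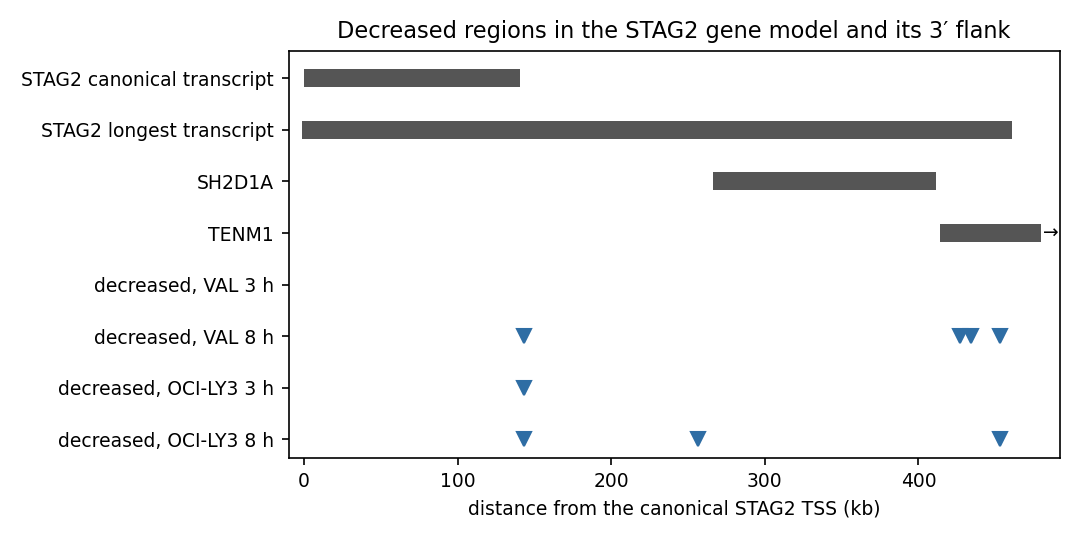
The STAG2 locus against distance in kb from the canonical STAG2 TSS. Grey bars are transcripts and genes, with TENM1 running on past the right edge and TEX13D not drawn. Blue triangles mark the 5 decreased regions listed under STAG2 in each comparison, and the flanking region 75007 bp upstream lies outside the plotted range. Every triangle lies to the right of the canonical transcript, and VAL 3 h has none.

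The sequence around the midpoints is shown for the 2 STAG2 flank regions that had a motif match there. The first stretch is from the region decreased in OCI-LY3 8 h (chrX:123351743-123351942), with both matches to the ETS family core CCGGAAG, on the minus strand, in capitals. The second is from the TENM1 intron 27 region decreased in VAL 8 h (chrX:123522520-123522719), with a match to the CTCF core consensus, 1 mismatch allowed and on the minus strand, in capitals. Both are on the plus strand of GRCh37.
STAG2 3′ flank, OCI-LY3 8 h: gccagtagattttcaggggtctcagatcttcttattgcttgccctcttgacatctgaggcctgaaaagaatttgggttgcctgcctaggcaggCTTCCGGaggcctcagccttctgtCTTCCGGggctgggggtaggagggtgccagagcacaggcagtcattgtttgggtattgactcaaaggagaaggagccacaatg
TENM1 intron 27, VAL 8 h: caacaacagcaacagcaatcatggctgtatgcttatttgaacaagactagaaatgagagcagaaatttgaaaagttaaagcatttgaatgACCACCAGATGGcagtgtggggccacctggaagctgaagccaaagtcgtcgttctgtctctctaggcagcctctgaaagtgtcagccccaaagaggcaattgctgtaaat

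The STAG2 flank region called in 3 comparisons (chrX:123237898-123239237) lay in repeated DNA. In its central 200 bp 87.1% of the 31-base words occurred more than once in the genome, with a median of 1466 copies and a highest of 18573, and 65.8% of the words of the whole region were repeated. Its central share was above that of 99.2% of all called regions, 78.7% of which had no repeated word in their central 200 bp. The study removed reads that did not map uniquely, and the part of this in the call was not tested. In the other 8 regions of the CTCF and cohesin genes no word of the central 200 bp was repeated.

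Motif matches in the called regions were few. The CTCF core consensus was matched in the central 200 bp of 1 of the 9 regions, the one in TENM1 intron 27, where the match began 9 bp from the midpoint. Over all called regions the share with such a match was 4.01%. Searched over its whole length, the RAD21 gene body region had a match too, which began 270 bp from its midpoint. No share of all called regions is given for whole lengths. An ETS core stood in the central 200 bp of 1 region, beside 3.22% of all called regions, and GC boxes stood there in 2 regions, beside 19.2%. The CRE (TGACGTCA), the YY1 core (AAGATGGC) and the E-box (CACGTG) had no match in the central 200 bp of any of the 9 regions, beside 0.406%, 1.46% and 3.63% of all called regions. These matches describe the letters in the windows and say nothing about binding.

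The promoters themselves, taken as 250 bp before to 50 bp after each canonical TSS in GRCh37, overlapped between called and uncalled genes. GC content was 58.7% at MAU2, 65.7% at SMC1A and 75.3% at CTCF. The genes without a promoter call ran from 56.0% at SMC3 through 58.7% at RAD21, 63.0% at STAG2, 67.0% at NIPBL, 71.3% at STAG1 and 71.7% at CTCFL to 76.3% at WAPL, so both sets overlapped over almost the whole range. The median over 19862 promoters was 63.7%. It was 67.3% for the 5617 genes with an increased region within 1 kb of a TSS in any comparison and 61.7% for the others. A GC box was present in 9 of the 10 promoters, all but that of STAG2, beside 61.5% of all promoters. The ETS core was present at SMC1A and NIPBL, beside 14.2%, the YY1 core at RAD21, beside 4.06%, and the CTCF consensus at STAG1, with 2 matches, beside 2.40%. The observed over expected CpG ratio was lowest at STAG2 (0.370) and CTCFL (0.531), and between 0.868 and 1.14 at the other 8 genes. STAG2 has 7 annotated TSSs, and its values hold for the stretch at the canonical one only.

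The 5 genes without a region had their nearest called regions 7212 bp or more outside the gene. For SMC3 (chr10:112327442-112365806), the ATPase partner of SMC1A, the nearest called region lay 7212 bp past the 3′ end (chr10:112373018-112373994) and was decreased in VAL 8 h. The nearest to STAG1 (chr3:136055078-136471245) was 34038 bp upstream of its TSS (chr3:136505283-136507003), decreased in OCI-LY3 8 h. CTCFL (chr20:56071022-56100708), which is normally silent outside the testis, had its nearest region 43828 bp past its 3′ end, increased in VAL 8 h. For WAPL (chr10:88195013-88281549), which opens the ring, the nearest lay 57265 bp past the 3′ end and was decreased in OCI-LY3 8 h. NIPBL (chr5:36876871-37066515) had its nearest region 117905 bp past the 3′ end, increased in OCI-LY3 8 h. Neither NIPBL nor WAPL had a called region within 100 kb of its TSS in any list. The nearest regions of all 5 genes lay closer to an annotated protein-coding TSS of another gene. That gene was RBM20 at 30100 bp for SMC3, SLC35G2 at 30923 bp for STAG1 and HMGB1P1 at 43228 bp for CTCFL. It was GRID1 at 9808 bp for WAPL and CPLANE1 at 62585 bp for NIPBL. Measured from the TSS alone, the nearest called region of these 5 genes was between 34038 bp and 143801 bp away.

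Flanking regions of the other members lay outside the rule as well. CTCF had a region 13627 bp upstream of its TSS (chr16:67581034-67582743) that was increased in all 4 comparisons. The TSS of RIPOR1 was nearer to that region, at 9677 bp. A region 5279 bp past the 3′ end of CTCF, over the TSS of CARMIL2, was increased in VAL 3 h and VAL 8 h. MAU2 had a region 2198 bp past its 3′ end (chr19:19471761-19472649), increased in VAL 3 h and VAL 8 h. In this region 34.5% of the 31-base words were repeated in the genome. The protein-coding TSS nearest to it was that of GATAD2A, at 23993 bp. STAG2 had a region 75007 bp upstream of its nearest TSS (chrX:123018237-123019362), decreased in VAL 8 h. That region was nearer to a STAG2 TSS than the 5 regions past the canonical end. The protein-coding TSS nearest to it was that of XIAP, at 24115 bp.

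**Figure D4:**
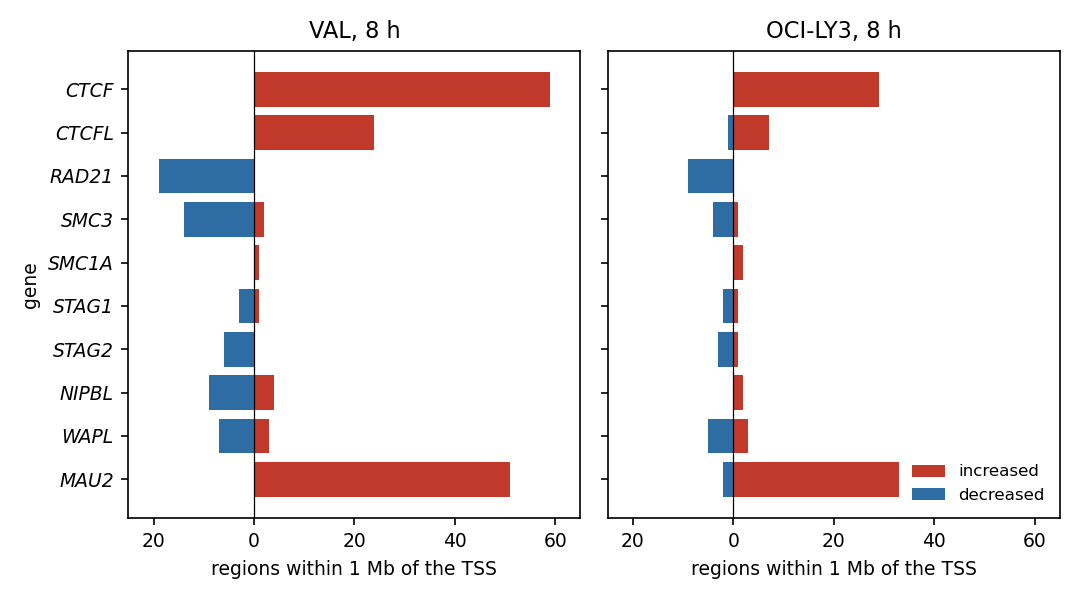
Called regions within 1 Mb of the canonical TSS of each gene after 8 h in VAL (left) and OCI-LY3 (right). Red bars to the right count increased regions and blue bars to the left decreased ones. CTCF and MAU2 have 59 and 51 increased regions in VAL, and RAD21 has 19 decreased and no increased region.

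Over 1 Mb on either side of the TSS, the direction of the calls differed between genes. Around CTCF, 29 and 59 regions were increased in VAL and 12 and 29 in OCI-LY3, at 3 h and 8 h each, and none was decreased. Around MAU2, 21 and 51 were increased in VAL and 17 and 33 in OCI-LY3, and 2 were decreased, both in OCI-LY3 8 h. Of all called regions on chromosome 16, the increased share was 97.8%, 96.9%, 86.9% and 93.6% in the same order, and on chromosome 19 it was 99.6%, 99.4%, 97.2% and 98.7%. The surroundings of SMC3 held 14 decreased and 2 increased regions in VAL 8 h, beside 296 increased of 604 called regions on chromosome 10, and in the other comparisons between 1 and 4 decreased and 1 or 2 increased. Around NIPBL the direction varied, with 9 decreased and 4 increased regions in VAL 8 h, 1 and 3 in VAL 3 h, 1 and 0 in OCI-LY3 3 h and 0 and 2 in OCI-LY3 8 h. Of the called regions on chromosome 5, those increased were 297 of 949 in VAL 8 h, 90 of 225 in VAL 3 h, 85 of 189 in OCI-LY3 3 h and 151 of 374 in OCI-LY3 8 h. On chromosome X, which holds SMC1A and STAG2, the increased share was 41.2% and 20.3% in VAL 3 h and VAL 8 h and 67.3% and 43.9% in OCI-LY3.

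The promoter calls at genes of related complexes were increased in every list that held them. Of 43 such genes, 11 had an increased region within 1 kb of a TSS in VAL 3 h, 17 in VAL 8 h, 9 in OCI-LY3 3 h and 9 in OCI-LY3 8 h (25.6%, 39.5%, 20.9% and 20.9%), beside 10.3%, 25.1%, 5.92% and 9.30% of all protein-coding genes. None had a decreased one, beside 0.322%, 3.38%, 0.694% and 1.28% of all protein-coding genes. The same region was increased in both lines at 8 h for 6 of the 43, beside 7.44% of all protein-coding genes (1500 of 20162). These were CDCA5, which encodes sororin, the protector of cohesin in sister chromatids; CHTF18, a subunit of the clamp loader used in cohesion; the zinc finger genes MAZ and WIZ; LDB1, a bridging factor of enhancer loops; and CHD8, a chromatin remodeller. CDCA5, CHTF18, MAZ, LDB1 and WIZ had the pattern of MAU2, with an increased region in all 4 comparisons.

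By group, the 8 CTCF partners and other architectural factors had 5 and 6 called genes in VAL and 3 and 4 in OCI-LY3, at 3 h and 8 h each. The share of all protein-coding genes was 10.3% and 25.1% in VAL and 5.92% and 9.30% in OCI-LY3. The promoters of these partners and other architectural factors had a median GC content of 74.7%, above the median of 66.3% of the CTCF and cohesin genes, and its part in the counts was not tested. The other groups hold few genes, and several of their counts lay near those background shares. Of 14 cohesin regulators 3 were called in each comparison (21.4%), with the cohesin-bound factor gene PDS5B in VAL at both times, DSCC1 in OCI-LY3 3 h and the separase gene ESPL1 in OCI-LY3 8 h beside CDCA5 and CHTF18. Of 8 condensin genes, 1, 3, 2 and 1 were called (12.5%, 37.5%, 25.0% and 12.5%), with NCAPH2 in VAL at both times and SMC4 in OCI-LY3 at both times. Of 7 genes of the SMC5/6 complex and SMCHD1, 1, 2, 1 and 1 were called (14.3%, 28.6%, 14.3% and 14.3%), with NSMCE1 in VAL and NSMCE2 in OCI-LY3 at both times. The meiotic cohesin genes SMC1B and STAG3, 2 of 4, were called in VAL 8 h, and TOP2A, which encodes a topoisomerase of dividing cells, in VAL at both times. At 3 h, 15 of the 43 genes were called in at least 1 line, VEZF1 in VAL and NCAPG in OCI-LY3 among them, beside 13.8% of all protein-coding genes (2786 of 20162) with a region in either direction.

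**Figure D5:**
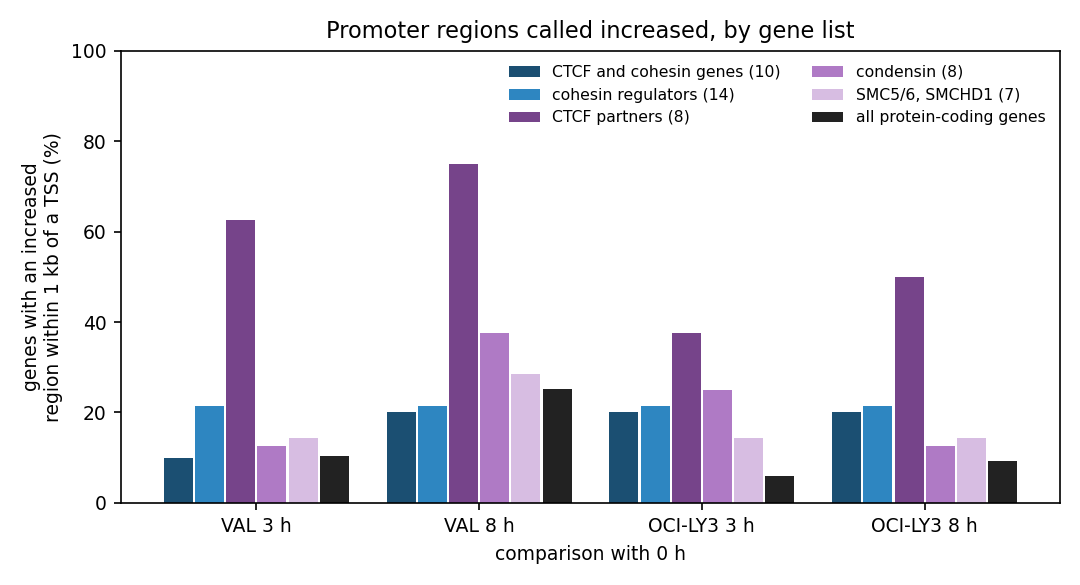
Share of genes in each list with an increased region within 1 kb of a TSS (vertical axis, %) in each comparison with 0 h. Bars are coloured by list, with the number of genes in brackets, the black bars are all 20162 protein-coding genes, and lists of fewer than 7 genes are left out. The CTCF and cohesin genes stand at 1 of 10 in VAL 3 h and at 2 of 10 in the other comparisons.

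The comparisons at 3 h and 8 h of a line share their 0 h libraries, so calls at both times are not independent of each other. Entries at both times were held in VAL by MAU2. In OCI-LY3 they were held by MAU2, SMC1A and the STAG2 flank region nearest to the canonical end. This made 4 in all. Of all regions increased at 3 h, 93.3% in VAL and 73.7% in OCI-LY3 were also increased at 8 h. Of all regions decreased at 3 h in OCI-LY3, 45.3% were also decreased at 8 h. In VAL all 5 decreased regions stood in the list at 8 h and none in that at 3 h, and those lists held 9260 and 1786 regions. Of all regions decreased in VAL 8 h, 12.6% were also in the list at 3 h. Between lines at the same time, 4 calls were shared, namely MAU2 at 3 h and at 8 h and 2 STAG2 flank regions at 8 h. Of all increased regions, 20.6% of the VAL list and 39.4% of the OCI-LY3 list were shared at 3 h, and 20.9% and 53.3% at 8 h. Of all regions decreased at 8 h, 11.8% of the VAL list and 31.6% of the OCI-LY3 list were shared.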

How the data were processed

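ATAC-seq was done on 24 libraries of VAL and OCI-LY3 cells, 4 for each of 6 conditions. Per the study's methods and the submitters' processing notes, the authors used Bowtie2 for alignment to hg19 and discarded mitochondrial, non-unique and duplicate reads. Peaks came from MACS2 on each sample and were merged with bedtools, and the authors compared the times with DESeq2 on read counts per merged peak. A fold change limit and an adjusted p-value limit were applied, the latter given with different values in different places of the study. For the ATAC-seq data, tool versions, any shift of reads for the Tn5 cut, and whether the library method entered the model are not given in the sources used here. The authors deposited 8 lists of region coordinates in bp, with no other value, and 0 columns of per-sample values were left unused.

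The lists count region starts from 0, and coordinates were converted to 1-based positions on GRCh37, and 0 regions lay beyond a chromosome end. Genes were those of GENCODE release 44 lifted to GRCh37, with TSSs of transcripts tagged basic. A gene was given a region within 5 kb of a TSS or over its gene body by at least 1 bp, and a promoter region within 1 kb. Motifs were searched as fixed letters on both strands in the central 200 bp of a region, with 1 mismatch for the CTCF consensus of 12 bases and 0 for the others, and counts of repeated 31-base words covered chromosomes 1 to 22, X and Y. Scripts used Python 3.11.15, numpy 2.4.6, pysam 0.24.0 and samtools 1.23.1, and the search, the link rule and the word count were checked on simulated data. Named were all 10 genes with each called region and, of the related genes, those with a promoter region in the same direction in both lines at 8 h or in either line at 3 h. Genes with an identical pattern of calls were named too. The other names (SMC1B, STAG3, YY1, NCAPD2, NCAPH, NSMCE3 and ESPL1 by their calls, and neighbours by position) complete a count. The members and lists were chosen with earlier results of these data known. Alternatives were other windows, TSS sets, gene bodies, overlaps and mismatch numbers. One related gene and one sequence are not reported here.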

Additional observations from a re-analysis of the deposited data

How the results depend on the processing

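Of 69 values under alternative settings for 11 counts, 60 stayed within 1.5 times the reported count and 9 did not. The counts of genes with an increased region stayed so under all alternatives run. Each of the 3 increased regions covers the canonical TSS of its gene, so other windows, gene bodies or TSS sets could not remove it. Their unchanged counts under those settings therefore say little about stability. Without gene bodies, using TSS windows of 5 kb alone, the count with a decreased region was 0 in VAL 8 h (2 with them), 0 in OCI-LY3 3 h (1) and 0 in OCI-LY3 8 h (1). With the body of the canonical transcript, chosen after seeing the data, it was 1 in VAL 8 h, and 0 in OCI-LY3 3 h and OCI-LY3 8 h, because the STAG2 regions lie past that transcript. The number of regions with a CTCF consensus match, 1 as reported, was 0 with 0 mismatches, 3 with at most 2 mismatches, and 2 over the whole region. No share of all called regions is given for these other settings, so these counts cannot be set beside a background.

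No paired analysis was possible because the lists hold calls and no value per library. Leaving out a replicate, a stricter threshold and a fit within a library method were not possible with these lists either. Depth is unknown, and a gene without a region is not shown to have kept its accessibility.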

Other observations

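Away from promoters, related genes were also called, and those named here were chosen after their calls were seen. Decreased regions over the gene body or within 5 kb of a TSS were found for 4 of the 43 related genes. By comparison these were 1 in VAL 3 h, 3 in VAL 8 h and 0 in both OCI-LY3 comparisons (2.33%, 6.98%, 0% and 0%), each below the share of all protein-coding genes, 4.24%, 13.1%, 4.66% and 7.41%. They were SGO1, which encodes shugoshin, the guardian of centromeric cohesin, in VAL 3 h, and SMC4, NSMCE2 and the topoisomerase gene TOP2B in VAL 8 h. SMC4 and NSMCE2 also had promoter regions that were increased in OCI-LY3 at both times and not listed in VAL. Increased regions by the same rule and outside the 1 kb promoter window were found for PDS5A, which encodes a cohesin-bound regulator, in OCI-LY3 at both times. YY1, which had a promoter region in VAL 8 h, had one by this wider rule in OCI-LY3 8 h.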
